A study of Mus musculus with 15 samples.

Results

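The callosum opposite an LPC lesion was compared with the place where sham mice had received saline. All genes that passed a filter on low counts entered the comparison, 16795 of the 33321 genes in the table, in 6 of the 15 libraries of the series. A single gene, Tnfaip8l3, differed at an adjusted p under 0.05, and it was lower in the contralateral callosum. Below that threshold, genes of brain endothelium were most often higher at an unadjusted p under 0.05 among 43 gene lists. The lists were chosen with earlier results of these data known, so this rank is a description. Of the 14 members, 8 were higher at an unadjusted p under 0.05, where 4.24% of all tested genes were. When single libraries were left out, 4 to 9 of the 14 passed it, and the first rank was lost or shared in some of these fits.

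The series measured mouse corpus callosum by paired-end RNA sequencing after focal white matter injury, in 5 groups of 3 libraries. LPC is lysophosphatidylcholine, a detergent-like lipid that strips myelin where it is injected, and L-NIO is an inhibitor of nitric oxide synthase used to make a small white matter stroke. LPC-Contra is the tissue opposite an LPC lesion on day 4, and LNIO-Contra the tissue opposite an L-NIO lesion on the same day. LPC-Ipsil is the LPC lesion itself on day 4, and Sham-Ipsil is the saline site of sham-operated animals, whose day of collection the labels do not give separately. The labels give no strain, sex, age or genotype.

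The comparison therefore joins at least 3 differences. They are the side of the brain, a needle track with saline at the site, and the lesion elsewhere in the same brain. The series holds no contralateral tissue from sham mice, so these cannot be told apart. Time after surgery may differ as well, as the day of Sham-Ipsil is not given separately. Whether replicates came from separate mice is not stated, so every p-value rests on a spread between libraries that may be technical.

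The corpus callosum is the fibre tract that joins the hemispheres, made of axons crossing to the other side, the oligodendrocytes that wrap them in myelin, astrocytes, microglia and vessels. Because its axons cross, tissue opposite a lesion can hold axons cut or stripped on the other side. It lies between cortex, striatum, hippocampus and the ventricle lining, so a dissected piece may carry cells of each.

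The 6 libraries held 14896445 to 19971859 counts. LPC-Contra replicate 2 stood apart from the rest. Its ribosomal protein genes took 1.69% of counts, against 0.813% to 0.887% in the other LPC-Contra libraries and 0.915% to 0.994% in Sham-Ipsil. Its expression also depended on gene length: the median log2 deviation from the other libraries was 0.38 in the shortest of 5 length classes and -0.35 in the longest. Across genes, the rank correlation of the deviation with length was -0.489 in this library, 0.203 and 0.273 in the other LPC-Contra libraries, and 0.116 to 0.224 in Sham-Ipsil. The difference between the groups had a rank correlation with length of -0.259, and of 0.0628 without this library. Genes are not independent replicates, and these values describe the libraries. In the gene lists below, a range in brackets after a median or a count gives its lowest and highest value when each of the 6 libraries was left out in turn.

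**Figure D1:**
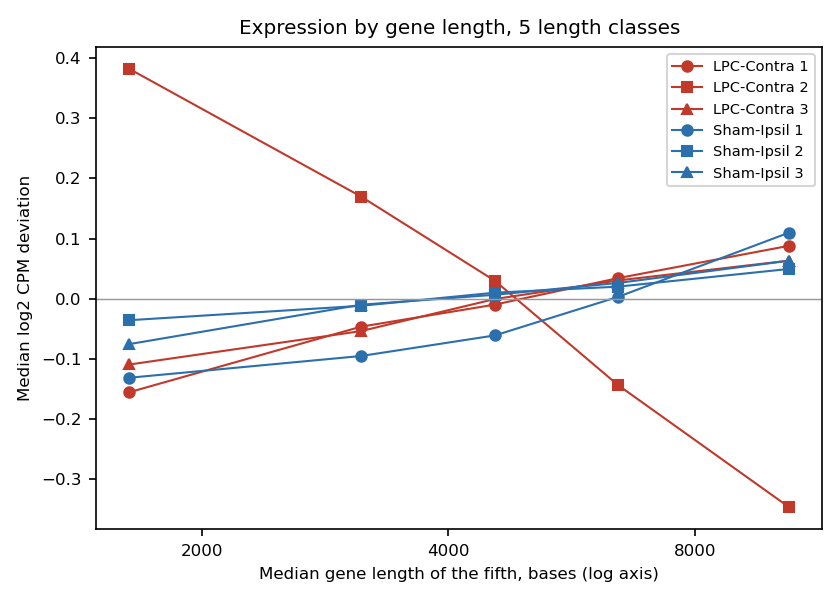
Median deviation of log2 CPM from the mean of the other libraries (y axis) against the median gene length of each of 5 length classes in bases (x axis, log scale), for LPC-Contra (red) and Sham-Ipsil (blue), with a marker shape per replicate. LPC-Contra replicate 2 falls with length, 0.38 in the shortest and -0.35 in the longest class, while the other 5 libraries climb slightly.

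Few genes were called between the groups, which with 3 libraries each does not show that the groups were alike. Of 16795 tested genes, 1 was called, a share of 0.00595%, with 0 higher and 1 lower in LPC-Contra by edgeR's quasi-likelihood test with Benjamini-Hochberg adjustment. At an unadjusted p under 0.05 the count was 1624 genes, or 9.67%, of which 712 were higher (4.24% of all tested) and 912 lower (5.43%). The 3 LPC-Contra libraries lay wholly above the 3 Sham-Ipsil libraries for 1186 genes (7.06%) and wholly below them for 1356 (8.07%). These shares are the background for each list count against Sham-Ipsil given below. The median log2 fold change was 0.02, 90% of genes lay between -0.59 and 0.58, and the median standard error (SE) was 0.20. DESeq2 called 28 genes on the same counts, 9 higher and 19 lower.

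Tnfaip8l3 encodes a protein of the TNFAIP8 family that carries phosphoinositide lipids. It had 4.85, 3.62 and 5.38 CPM, counts scaled to library size, in LPC-Contra, against 16.7, 16.9 and 12.1 CPM in Sham-Ipsil. Every LPC-Contra library was below every Sham-Ipsil library, with a log2 fold change of -1.72 ± 0.22 (SE) and an adjusted p of 0.0224 in edgeR. Levels in LNIO-Contra were 8.46, 6.76 and 5.49 CPM, and in LPC-Ipsil 5.73, 6.33 and 7.74 CPM. Sham-Ipsil thus held the 3 highest values among these 12 libraries. The gene separates the saline site from the lesion itself as well as from the tissue opposite. LPC-Ipsil replicate 3 (7.74 CPM) was near LPC-Contra in damage-associated microglia genes, as given below. The call was lost when any of 4 single libraries was left out (adjusted p 0.192 to 0.223 in edgeR), with a log2 fold change between -1.57 and -1.76 in those fits.

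The next genes by p did not pass the adjusted threshold and are given as values. Pltp, which encodes a phospholipid transfer protein, had 33.6, 32.6 and 49.6 CPM in LPC-Contra, against 19.4, 23.7 and 16.6 CPM in Sham-Ipsil (log2 fold change 0.96 ± 0.17, edgeR adjusted p = 0.289). The groups did not overlap, and LPC-Contra replicate 3 was the highest. Vgf, a precursor of secreted neuropeptides, had 194, 187 and 175 CPM in LPC-Contra, against 95.2, 124 and 125 CPM in Sham-Ipsil (0.69 ± 0.14, edgeR adjusted p = 0.332). The LPC-Contra libraries were close to each other and all above Sham-Ipsil. Hspb1, a small heat shock protein of stressed astrocytes and regrowing axons, had 4.28, 3.85 and 4.28 CPM in LPC-Contra, against 1.26, 1.56 and 1.06 CPM in Sham-Ipsil (1.69 ± 0.36, edgeR adjusted p = 0.394). Its levels were low, and the groups did not overlap.

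Genes of vessels and cell junctions stood beside them. Slc2a1, which carries glucose across brain capillaries, had 63.5, 70.4 and 96.1 CPM in LPC-Contra, against 46.5, 46.9 and 46.4 CPM in Sham-Ipsil (0.72 ± 0.14, edgeR adjusted p = 0.332). Sham-Ipsil libraries were nearly equal and all lower. Mmrn2, an extracellular matrix protein made by endothelial cells, had 4.02, 3.03 and 6.29 CPM in LPC-Contra, against 1.79, 1.89 and 1.46 CPM in Sham-Ipsil. Jup, the junction protein plakoglobin, had 66.3, 80.8 and 78.8 CPM in LPC-Contra, against 45.3, 55.7 and 44.3 CPM in Sham-Ipsil. None of these groups overlapped. The other genes named on the higher side were Igsf21 and Hs3st2 (log2 fold changes 0.66 and 0.63) and the calcium sensor Kcnip3 (0.46).

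The 10 genes named on the lower side include several known from neurons. Gpr22, an orphan G protein-coupled receptor, had 26.2, 26.8 and 34.0 CPM in LPC-Contra, against 57.8, 47.7 and 46.4 CPM in Sham-Ipsil (-0.81 ± 0.15, edgeR adjusted p = 0.289). Sphkap, which anchors protein kinase A in neurons, had 48.4, 49.6 and 86.1 CPM in LPC-Contra, against 158, 135 and 109 CPM in Sham-Ipsil (-1.13 ± 0.24, edgeR adjusted p = 0.393). Epha7, a receptor for ephrins in axon guidance, had 59.6, 54.1 and 76.8 CPM in LPC-Contra, against 127, 108 and 114 CPM in Sham-Ipsil. For these 3 genes no LPC-Contra library reached a Sham-Ipsil one, and LPC-Contra replicate 3 was nearest. Fstl5, a follistatin-like secreted protein, had the smallest unadjusted p of the uncalled genes, with 15.5, 13.6 and 15.7 CPM in LPC-Contra and 24.9, 25.2 and 22.3 CPM in Sham-Ipsil. The presynaptic scaffold Ppfia2, the synapse organiser C1ql3, the ubiquitin ligase Marchf1, the Rab regulator Rabgap1l and the glycosyltransferase gene Glt8d2 had log2 fold changes between -1.09 and -0.64, with no overlap in any of them.

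**Figure D2:**
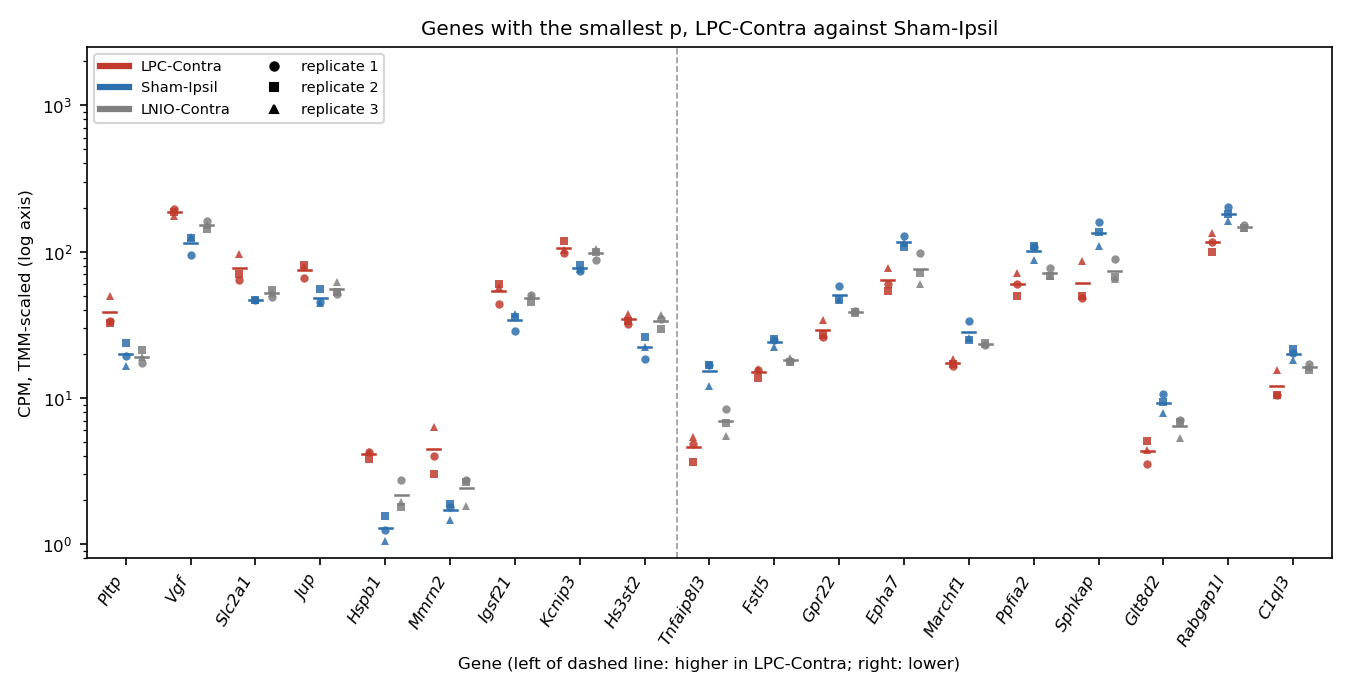
CPM (y axis, log scale) of the genes named above, 9 higher and 10 lower (x axis) in LPC-Contra (red), Sham-Ipsil (blue) and LNIO-Contra (grey), with a marker per replicate and a bar at the group mean. Tnfaip8l3, the called gene, has LPC-Contra values of 3.62 to 5.38 CPM and Sham-Ipsil values of 12.1 to 16.9 CPM.

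LNIO-Contra is contralateral tissue too. Its libraries were part of the model that ranked these genes by p, and so had a share in the choice. The LNIO-Contra mean lay between the LPC-Contra and Sham-Ipsil means for 10 of the 10 genes named as lower and for 8 of the 9 named as higher. Genes picked for a large gap leave much room between the means, so this count is a description. Pltp was the exception, with 17.2, 21.2 and 19.1 CPM in LNIO-Contra, close to Sham-Ipsil.

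Among the 43 gene lists, endothelial genes were most often higher in LPC-Contra at an unadjusted p under 0.05, a rank read from these same values. The rank did not hold by other measures. Striatal and ependyma genes had larger medians (0.76 and 0.71), and astrocyte genes lay wholly above Sham-Ipsil in 6 of 11, against 7 of 14 here. Of 14 endothelial genes, all tested, 14 had a log2 fold change above 0, where 53.4% of all tested genes did, and their median was 0.58 (0.37 to 0.78), against 0.02 for all genes. At an unadjusted p under 0.05, 8 were higher (4 to 9) and 0 lower, where 4.24% of all genes were higher. Without LPC-Contra replicate 3 the number higher was 4 of 14, against 5 of 14 BMP and TGF-beta target genes. Without Sham-Ipsil replicate 2 it was 5 of 14, against 4 of 9 ependyma genes. Without Sham-Ipsil replicate 3 it was 7 of 14, against 6 of 12 striatal genes. In 7 the LPC-Contra libraries lay wholly above Sham-Ipsil, as in 7.06% of all genes, and 0 were called. Cldn5, the main tight junction protein of brain capillaries, had 20.1, 28.6 and 25.5 CPM in LPC-Contra, against 11.2, 12.5 and 15.6 CPM in Sham-Ipsil (0.91 ± 0.26, edgeR adjusted p = 0.492). Each LPC-Contra library was above each Sham-Ipsil one. Mfsd2a, the lipid transporter that keeps barrier endothelium tight, had 18.3, 19.1 and 25.0 CPM in LPC-Contra, against 15.2, 13.3 and 13.6 CPM in Sham-Ipsil. Abcb1a, the drug efflux pump P-glycoprotein, had 25.0, 15.3 and 40.4 CPM in LPC-Contra, against 15, 16.4 and 13.1 CPM in Sham-Ipsil, and here replicate 2 lay within the Sham-Ipsil range.

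The vessel pattern was strongest in LPC-Contra replicate 3. The mean log2 level of the 14 endothelial genes, relative to Sham-Ipsil, was 0.44, 0.24 and 0.90 in LPC-Contra and between -0.07 and 0.08 in Sham-Ipsil, so the groups did not overlap on this score. Leaving out replicate 3 lowered the list median to 0.37 with 4 genes past the unadjusted threshold, leaving out Sham-Ipsil replicate 2 gave 0.53 with 5 genes, and leaving out LPC-Contra replicate 2 gave 0.78 with 9 genes, of which 7 were among the 8. Pericyte and smooth muscle genes had a median of 0.45, with 10 of 10 tested members above 0 and 2 higher at an unadjusted p under 0.05, Kcnj8 and Vtn. Their median was 0.20 without LPC-Contra replicate 3 and 0.61, with 4 higher, without LPC-Contra replicate 2, and 0 were higher without Sham-Ipsil replicate 1. The angiogenesis and barrier list had a median of 0.33, with 2 of 14 higher at that p, Mmrn2 and the endothelial receptor Tie1. Its median was 0.09 without LPC-Contra replicate 3 and 0.44, with 4 higher, without LPC-Contra replicate 2. In bulk tissue more cells of a type and more RNA per cell cannot be told apart, here and in the results that follow.

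Set against LNIO-Contra, the endothelial genes gave a like count from other samples. All 14 were above 0 (52.6% of all genes were), with a median of 0.66, 8 were higher and 0 lower at an unadjusted p under 0.05 (1.86% of all genes were higher and 1.57% lower there), and 0 were called. With single libraries of these 2 groups left out, the median was 0.45 to 0.80 and 8 to 10 were higher. Both comparisons use the same LPC-Contra libraries and are not independent. Against LPC-Ipsil the endothelial median was 0.09, and -0.14 without LPC-Contra replicate 3, with 0 genes higher and 1 lower at an unadjusted p under 0.05. Score values in LPC-Ipsil were 0.54, 0.66 and 0.37, within the LPC-Contra range. The last of these is from LPC-Ipsil replicate 3, which was near LPC-Contra in damage-associated microglia genes, as given below.

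**Figure D3:**
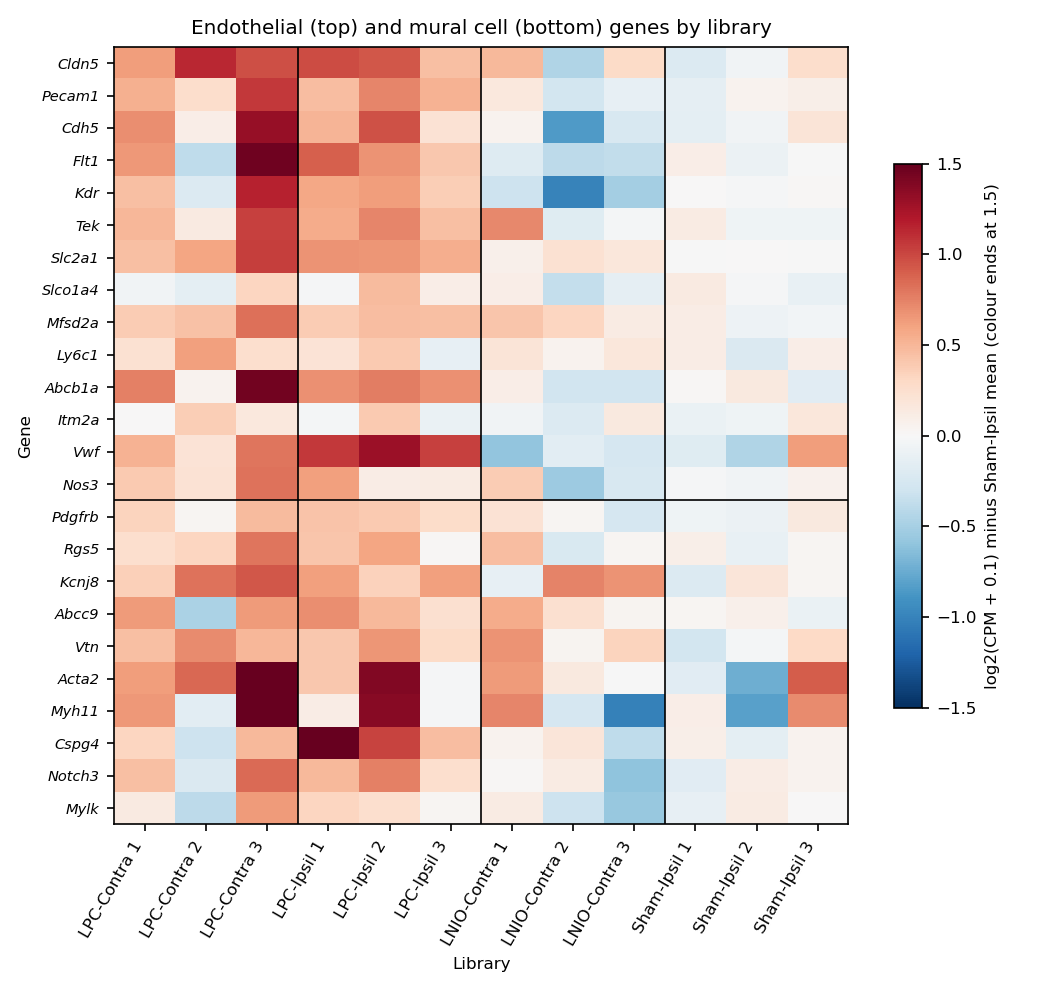
Expression of 14 endothelial and 10 mural cell genes (rows) by library (columns), as log2(CPM + 0.1) minus the Sham-Ipsil mean, with red for higher and blue for lower. LPC-Contra and LPC-Ipsil columns are mostly red, deepest in LPC-Contra replicate 3, and the endothelial rows of LNIO-Contra are mostly pale or blue.

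Red cell genes ran the other way. All 4 tested members of 5 listed had a log2 fold change below 0, with a median of -0.70. At an unadjusted p under 0.05, 2 were lower, where 5.43% of all genes were. Alas2, the enzyme that starts heme synthesis in red cell precursors, had 1.04, 1.75 and 1.23 CPM in LPC-Contra, against 1.73, 3.04 and 3.12 CPM in Sham-Ipsil. Hba-a2, an alpha globin, had 11, 36.9 and 10.2 CPM in LPC-Contra, against 36.6, 40.4 and 53.3 CPM in Sham-Ipsil. Replicate 2 reached Sham-Ipsil levels, while replicates 1 and 3 were low. Hba-a1 and Hba-a2 are near-identical copies and their split is uncertain. The summed CPM of the 4 genes was 93.5 to 251 in LPC-Contra and 182 to 280 in Sham-Ipsil, and its part in the vessel result was not tested. Without replicate 2 the median was -1.07, with 4 of 4 lower at that p, and without any one of the other libraries 1 or 2 were lower.

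Astrocyte genes leaned higher in part. Of 11, 4 were higher and 0 lower at an unadjusted p under 0.05, where 4.24% of all genes were higher. In 6 the LPC-Contra libraries lay wholly above Sham-Ipsil, as in 7.06% of all genes, and the list median was 0.14. The summed CPM overlapped, at 5840, 4320 and 6260 in LPC-Contra, against 5430, 5080 and 5500 in Sham-Ipsil. Without LPC-Contra replicate 2 the median was 0.32 with 5 higher, the 4 among them, and without Sham-Ipsil replicate 3 it was 0.20 with 2 higher. Aldh1l1, a folate enzyme used as an astrocyte marker, had 55.9, 59.6 and 60.2 CPM in LPC-Contra, against 37.0, 42.0 and 42.5 CPM in Sham-Ipsil (0.53 ± 0.15, edgeR adjusted p = 0.492). Sox9, an astrocyte transcription factor, had 30.9, 41.8 and 37.1 CPM in LPC-Contra, against 23.4, 26.0 and 26.3 CPM in Sham-Ipsil. No library overlapped in either gene. S100b, a calcium-binding protein, and the growth factor receptor Fgfr3 were the other members past that p.

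Reactive astrocyte genes had a median of 0.28 (0.15 to 0.41), with 8 of 13 above 0 and 1, Hspb1, higher at an unadjusted p under 0.05. Gfap, the intermediate filament that marks gliosis, had 484, 796 and 445 CPM in LPC-Contra, against 529, 329 and 248 CPM in Sham-Ipsil (0.64 ± 0.45, edgeR adjusted p = 0.626). The groups overlapped, with the highest value in LPC-Contra replicate 2.

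Microglial genes were mixed. Homeostatic genes had a median of 0.31 (0.24 to 0.40, the lowest without LPC-Contra replicate 2), with 9 of 12 above 0 and 1, Sall1, higher at an unadjusted p under 0.05. In 5 the LPC-Contra libraries lay wholly above Sham-Ipsil and in 2 wholly below, as in 7.06% and 8.07% of all genes. P2ry12, the purine receptor of resting microglia, had 53.8, 57.6 and 58.5 CPM in LPC-Contra, against 82.1, 62.6 and 63.5 CPM in Sham-Ipsil. Aif1, which encodes IBA1, had 4.90, 9.75 and 5.12 CPM in LPC-Contra, against 4.48, 2.91 and 4.88 CPM in Sham-Ipsil. P2ry12 was below and Aif1 above Sham-Ipsil in every library, and neither passed the unadjusted threshold.

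The damage-associated microglia list turned on 1 library. Its median was 0.32 with 15 of 20 above 0 and 0 past an unadjusted p under 0.05, and -0.20 without LPC-Contra replicate 2. It was 0.13 and 0.14 without Sham-Ipsil replicates 2 and 3. Trem2, the lipid-sensing receptor of that state, had 10.9, 21.8 and 6.35 CPM in LPC-Contra, against 15.7, 7.03 and 8.40 CPM in Sham-Ipsil. Apoe, the lipid carrier, had 846, 1620 and 917 CPM in LPC-Contra, against 841, 868 and 810 CPM in Sham-Ipsil. Replicate 2 was highest in both, and Sham-Ipsil replicate 1 was the highest control for Trem2. Spp1 had 4.12, 7.30 and 2.72 CPM in LPC-Contra, against 16.6, 3.99 and 3.92 CPM in Sham-Ipsil, and Cd68, a lysosomal protein of phagocytes, had 10.4, 16.3 and 8.75 CPM in LPC-Contra, against 10.8, 6.69 and 8.45 CPM in Sham-Ipsil.

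Other immune lists were also lower without LPC-Contra replicate 2. The complement list had a median of 0.50, and 0.03 without that library. MHC class I genes had a median of 0.57 with 9 of 9 above 0 and 0 past an unadjusted p under 0.05, and 0.29 without it. Their score was 0.37, 1.07 and 0.30 in LPC-Contra and at most 0.12 in Sham-Ipsil, so the groups did not overlap on it. Chemokines and cytokines had a median of 0.50, which was 0.14 without LPC-Contra replicate 2 and 0.30 without Sham-Ipsil replicate 2. H2-D1, a classical MHC class I heavy chain, had 50.6, 155 and 88.9 CPM in LPC-Contra, against 53.1, 20 and 47.7 CPM in Sham-Ipsil. Interferon response genes had a median of 0.04 (-0.18 without LPC-Contra replicate 2, 0.33 without Sham-Ipsil replicate 3), with 1 higher (Isg15) and 1 lower (Ifi44) of 18 at an unadjusted p under 0.05.

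Lymphocyte genes were mostly below the filter on low counts. The T cell genes Cd3e, Cd3g and Cd8a and the cytotoxic gene Nkg7 had 0 counts in all 6 libraries, which allows up to 0.151 to 0.203 CPM by counting error alone, and 2 of 10 lymphocyte genes were tested, with log2 fold changes of 0.36 (Cd4) and -0.01 (Icos). Monocyte and neutrophil genes had a summed CPM of the 9 genes of 41.7 to 62.3 in LPC-Contra and 30.1 to 59.2 in Sham-Ipsil. Plac8, Chil3, S100a8 and S100a9 were below the filter, at no more than 0.543 CPM in any of the 6 libraries. The sum therefore comes almost wholly from the other members. Of the 9 genes, 5 were tested, with a median of 0.52 and 0 past an unadjusted p under 0.05. Without Sham-Ipsil replicate 2 the list median was 0.09, over the 6 genes that passed the filter in that fit. Border macrophage genes had a median of -0.32, with 1 of 7, the mannose receptor Mrc1, lower at that p. Fibroblast and meningeal genes had a median of -0.19, with 1 of 12, the proteoglycan Dcn, lower. Both medians were above 0 without Sham-Ipsil replicate 3 (0.13 for border macrophages and 0.03 for fibroblasts), where 0 genes of either list were lower at that p. The lowest values were -0.73 for border macrophages without Sham-Ipsil replicate 2 and -0.59 for fibroblasts without LPC-Contra replicate 1. Without LPC-Contra replicate 2 the medians were -0.19 and -0.15, again with 0 lower. Dcn had 7.20, 5.66 and 4.28 CPM in LPC-Contra, against 8.37, 7.10 and 17.3 CPM in Sham-Ipsil, where replicate 3 was the highest.

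Few oligodendrocyte genes passed the unadjusted threshold. The mature and myelin list had a median of 0.29, with 14 of 20 above 0 and 1, Ndrg1, higher at an unadjusted p under 0.05. Mbp, a main structural protein of myelin, had 7010, 6950 and 7870 CPM in LPC-Contra, against 7040, 5240 and 5240 CPM in Sham-Ipsil (0.32 ± 0.18, edgeR adjusted p = 0.565). Mog had 235, 375 and 213 CPM in LPC-Contra, against 332, 189 and 204 CPM in Sham-Ipsil. Sham-Ipsil replicate 1 was high for both and the groups overlapped. Leaving out LPC-Contra replicate 2 lowered the median to 0.02, and leaving out Sham-Ipsil replicate 1 raised it to 0.47 with 7 of 20 past the unadjusted threshold. Without Sham-Ipsil replicates 2 and 3, each in turn, it was 0.13 and 0.16 with 0 past it.

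Precursor genes had a median of 0.16 (0.06 to 0.23), with 3 of 12 higher at an unadjusted p under 0.05, and 1, Olig2, without LPC-Contra replicate 2. The count was also 1 without Sham-Ipsil replicate 2 or 3. Olig2, the lineage transcription factor, had 59.9, 60.9 and 56.1 CPM in LPC-Contra, against 46.4, 42.4 and 40.2 CPM in Sham-Ipsil (0.46 ± 0.16, edgeR adjusted p = 0.492), with no overlap. Pdgfra, the growth factor receptor of precursors, had 68.8, 49.8 and 68.6 CPM in LPC-Contra, against 66.1, 61.9 and 61.9 CPM in Sham-Ipsil, and overlapped. Newly forming oligodendrocyte genes had a median of 0.09 (-0.03 without Sham-Ipsil replicate 3, 0.25 without Sham-Ipsil replicate 1), with Bcas1 higher and Rras2 lower at that p. Gpr17 had 137, 104 and 142 CPM in LPC-Contra, against 140, 97.6 and 95 CPM in Sham-Ipsil.

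Neuronal genes of the regions around the callosum differed between single libraries. Pan-neuronal genes had a median of -0.02 (-0.10 to 0.06) and 0 of 12 past an unadjusted p under 0.05, with Snap25 at 1960, 1770 and 1910 CPM in LPC-Contra, against 1690, 2240 and 1840 CPM in Sham-Ipsil. All 12 striatal genes were above 0 with a median of 0.76, and 0 passed that p. Ppp1r1b, the dopamine signalling protein DARPP-32, had 472, 610 and 334 CPM in LPC-Contra, against 77.4, 301 and 445 CPM in Sham-Ipsil. Sham-Ipsil replicate 1 was far below the others, and without it the striatal median was 0.29. Without Sham-Ipsil replicate 3 it was 1.30, with 6 of 12 higher at that p.

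Hippocampal genes were below 0 in 10 of 10 members, with a median of -0.68 and 4 lower at an unadjusted p under 0.05, against a background of 5.43%. Wfs1, which marks a field of hippocampal pyramidal cells, had 51.9, 47.3 and 77.9 CPM in LPC-Contra, against 150, 64.6 and 119 CPM in Sham-Ipsil. Ociad2 had 55.5, 60 and 52.4 CPM in LPC-Contra, against 74.2, 72.9 and 68.9 CPM in Sham-Ipsil. Wfs1 overlapped between the groups and Ociad2 did not. LPC-Contra replicates 1 and 2 had scores of -1.04 and -0.998 on this list, and replicate 3 had -0.03, next to the Sham-Ipsil libraries. Without LPC-Contra replicate 3 the median was -1.13 with 4 lower. The number lower was 1 without LPC-Contra replicate 1 and 2 without LPC-Contra replicate 2 or Sham-Ipsil replicate 1. The list had a median of -0.04 against LNIO-Contra (-0.29 to 0.19 with single libraries of these 2 groups left out), with 5 members above 0 and 5 below.

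Single genes of projection neurons also had low values. Slc17a6, the vesicular glutamate transporter of thalamic and other subcortical neurons, had 6.78, 4.44 and 6.81 CPM in LPC-Contra, against 37.5, 10.8 and 13.7 CPM in Sham-Ipsil (-1.78 ± 0.46, edgeR adjusted p = 0.492). All LPC-Contra libraries were below Sham-Ipsil, whose replicate 1 was the highest, and without that replicate the log2 fold change was -1.03. Of the other 9 tested thalamic genes, 5 were above 0, and their median was 0.10. Among cortical excitatory genes, 2 of 13 were lower at an unadjusted p under 0.05, the transcription factor gene Neurod6 (29.1, 41.6 and 70.2 CPM in LPC-Contra, against 114, 75.3 and 87.7 CPM in Sham-Ipsil) and Rasgrf2. Interneuron genes had 4 higher and 1 lower of 12 at that p, where 4.24% of all genes were higher and 5.43% lower. Npy and Dlx5 lay wholly above Sham-Ipsil and Vip wholly below. Without LPC-Contra replicate 2 the number higher was 2, of which 1, Dlx1, was among the 4. It was also 2 without Sham-Ipsil replicate 2 or Sham-Ipsil replicate 3, and 1 without Sham-Ipsil replicate 1.

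Genes of the ventricle wall varied between single libraries. Genes of ependyma, the ciliated lining of the ventricle, had a median of 0.71, with 9 of 9 tested members above 0. At an unadjusted p under 0.05, 3 were higher. The median was 0.42, with 2 higher, without Sham-Ipsil replicate 3. Foxj1, the master gene of motile cilia, had 11.2, 15.5 and 15.6 CPM in LPC-Contra, against 8.07, 11.5 and 6.29 CPM in Sham-Ipsil. Pltp is a member of this list too. The list's summed CPM was 60.6 to 88.8 in LPC-Contra and 31.7 to 57.3 in Sham-Ipsil, and without Pltp it was 27.5, 37.9 and 40.9 in LPC-Contra, against 23.8, 33.8 and 15.1 in Sham-Ipsil. The groups overlapped once Pltp was left out. On the list score, Pltp included, they overlapped too, at 0.31, 0.59 and 0.95 in LPC-Contra, against 0.06, 0.62 and -0.67 in Sham-Ipsil.

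Choroid plexus genes had a median of -0.19 and moved by library, from -2.25 without LPC-Contra replicate 3 to 2.41 without Sham-Ipsil replicate 2. Kl, which encodes klotho, had 4.02, 7.24 and 62.2 CPM in LPC-Contra, against 14.2, 59.3 and 10.4 CPM in Sham-Ipsil. One library of each group was high, replicate 3 in LPC-Contra and replicate 2 in Sham-Ipsil. The summed CPM of the 10 genes was 34.8 to 1080 in LPC-Contra and 47.2 to 1470 in Sham-Ipsil, with no member at 0 in any of them. LPC-Contra replicate 3 also had the highest vessel score, and the part of choroid plexus in the vessel result was not tested. Neuroblast genes had a median of 0.29, with 4 of 10 higher at an unadjusted p under 0.05, where 4.24% of all genes were. Sox11 led them (34.6, 44.3 and 33.4 CPM in LPC-Contra, against 25.9, 24.3 and 26.0 CPM in Sham-Ipsil). Dcx, the neuroblast cytoskeletal protein, had 47.0, 34.4 and 46.1 CPM in LPC-Contra, against 49.9, 48.1 and 49.1 CPM in Sham-Ipsil. Without LPC-Contra replicate 2 the neuroblast median was 0.11, with 1 higher, Sox11, and 1 lower. The number higher was also 1 without LPC-Contra replicate 3, Sham-Ipsil replicate 1 or Sham-Ipsil replicate 3, and 2 without Sham-Ipsil replicate 2.

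**Figure D4:**
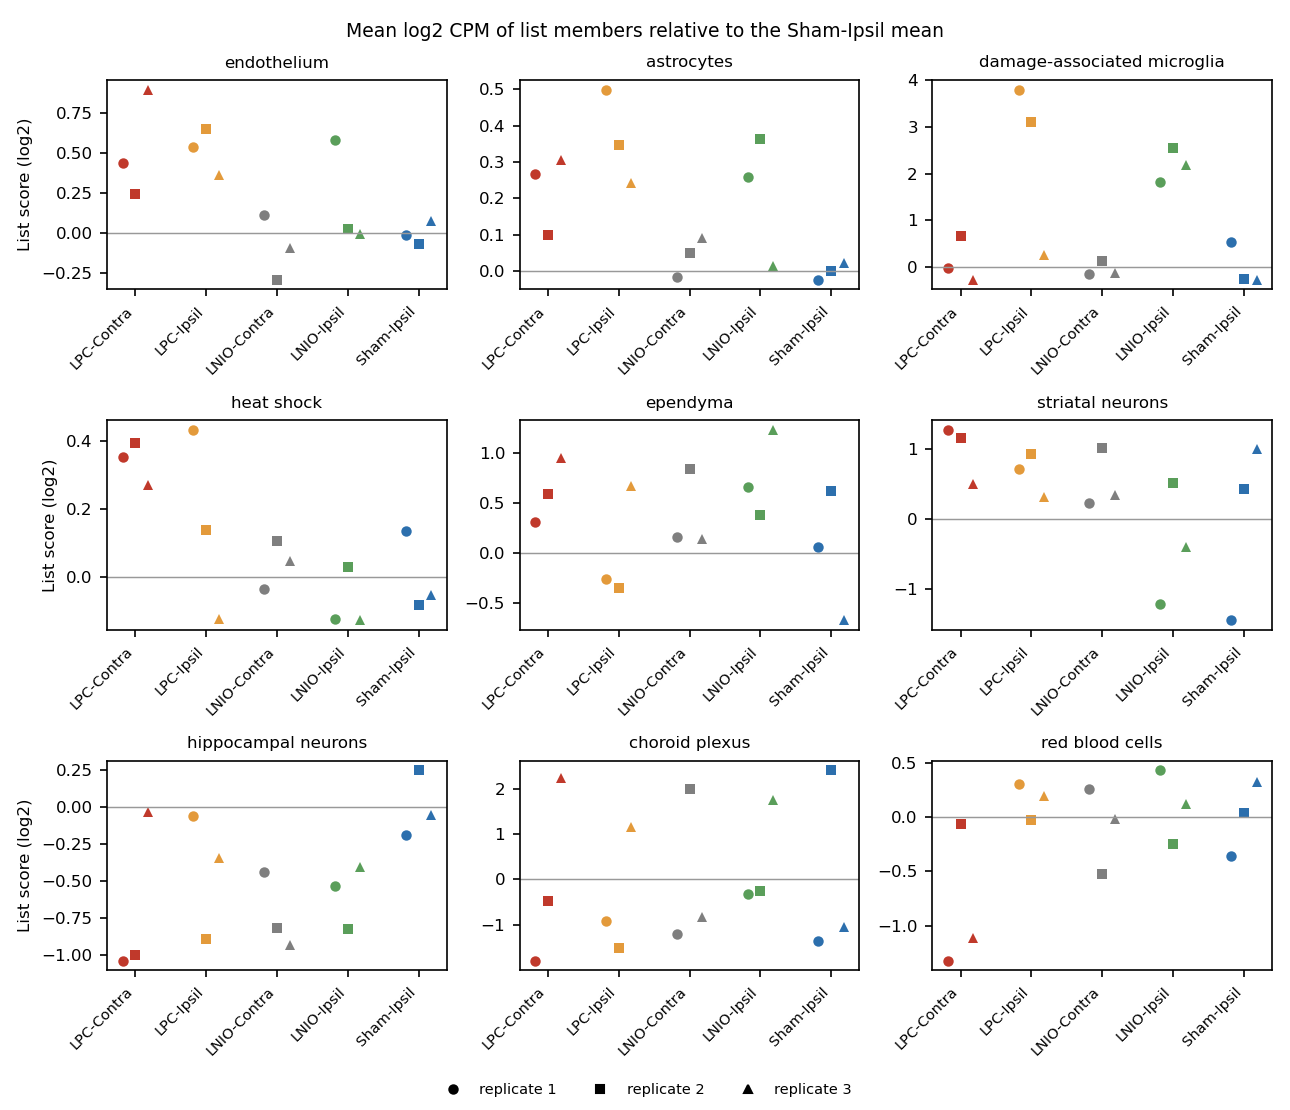
Mean log2 CPM of the tested members of 9 gene lists relative to the Sham-Ipsil mean (y axis), by group (x axis; LNIO-Ipsil is the L-NIO lesion), with a marker per replicate; each panel has its own scale. LPC-Contra lies above Sham-Ipsil without overlap for endothelium (0.24 to 0.90), astrocytes and heat shock, while striatal and choroid plexus scores spread within groups.

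Some stress genes had higher values in LPC-Contra. Heat shock genes had a median of 0.23, with 10 of 12 above 0. At an unadjusted p under 0.05, 4 were higher and 0 lower, where 4.24% of all genes were higher. Besides Hspb1 these were the co-chaperones Bag3 and Dnajb1 and the inducible chaperone Hspa1b, which had 19.4, 16.2 and 23.9 CPM in LPC-Contra, against 12.2, 10.3 and 14.6 CPM in Sham-Ipsil. Hspa1b has a near-identical copy, so its count is uncertain. Scores of the heat shock list were 0.27 to 0.39 in LPC-Contra and -0.08 to 0.14 in Sham-Ipsil, so the groups did not overlap. Without LPC-Contra replicate 2 the median was 0.13 and 4 genes were higher at that p, 3 of them the same (Bag3, Hspa1b and Hspb1). The number higher was 1 without Sham-Ipsil replicate 2, where the median was 0.15, and 2 without Sham-Ipsil replicate 1 or 3.

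Axon injury genes had a median of 0.28 (0.16 to 0.46, the lowest without LPC-Contra replicate 2), with 3 of 10 tested higher at an unadjusted p under 0.05, namely Hspb1, Sox11 and Gadd45a, a damage-induced growth arrest gene. Gadd45a had 9.03, 12 and 9.59 CPM in LPC-Contra, against 5.32, 5 and 5.38 CPM in Sham-Ipsil (0.96 ± 0.27, edgeR adjusted p = 0.492). The groups did not overlap. All 3 genes also passed that p without LPC-Contra replicate 2. Sprr1a and Gal, 2 other genes of injured neurons, were below the filter in these libraries.

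Immediate early genes had a median of 0.15, with 3 of 15 higher at an unadjusted p under 0.05. Egr1, an activity-induced transcription factor, had 331, 336 and 340 CPM in LPC-Contra, against 188, 200 and 307 CPM in Sham-Ipsil (0.54 ± 0.18, edgeR adjusted p = 0.492), and Fos had 19.7, 24.6 and 22.6 CPM in LPC-Contra, against 16.8, 19.3 and 37.7 CPM in Sham-Ipsil. Sham-Ipsil replicate 3 was the highest control for both, and without it the list median was 0.57 with 5 higher. The median was -0.05 without Sham-Ipsil replicate 1, 0.07 with 0 higher without Sham-Ipsil replicate 2, and 0.10 with 1 higher without LPC-Contra replicate 2.

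BMP and TGF-beta target genes had 5 higher and 1 lower of 14 at an unadjusted p under 0.05. Without LPC-Contra replicate 2 the higher ones were 2, Smad6 and Smad7, and without Sham-Ipsil replicates 2 and 3, each in turn, they were 2 and 3. The inhibitory Smads were among those higher, with Smad6 at 1.41, 1.46 and 1.43 CPM in LPC-Contra, against 0.777, 0.541 and 0.704 CPM in Sham-Ipsil. Grem1, a secreted BMP antagonist, was the lower one, with 1.51, 0.642 and 1.43 CPM in LPC-Contra, against 11.1, 2.57 and 4.98 CPM in Sham-Ipsil, where replicate 1 was the highest.

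The remaining lists had few members past the unadjusted threshold. Matrix and scar genes had a median of 0.10, with 2 of 17 higher, Ccn2 and Tnc. Their median was 0.35, with 4 higher, without LPC-Contra replicate 2 and -0.14 without LPC-Contra replicate 3. Proliferation genes had a median of 0.29, with 2 of 18 higher, Rrm2 and Aurkb. Without LPC-Contra replicate 2 it was 0.10, with 1 higher, Rrm2, and it was 0.52 with 3 higher without LPC-Contra replicate 3 and 0.44 with 4 higher without Sham-Ipsil replicate 1. Hypoxia and glycolysis genes had 2 higher (1 to 2) and 2 lower (0 to 3, the 3 without LPC-Contra replicate 2) of 15. The glucocorticoid list had 2 of 15 higher (0 to 2, the 0 without LPC-Contra replicate 2), with Fkbp5 at 0.14 ± 0.27. The clock list had 2 higher (0 to 4) and 1 lower (0 to 1) of 17, with Per2 at 0.40 ± 0.26.

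Oxidative stress genes had 2 higher (0 to 4) and 1 lower (0 to 1) of 12, and the integrated stress response 1 higher of 12 (0 to 2, with 0 without LPC-Contra replicate 2). Cholesterol synthesis (median 0.05, 21 genes) and lipid efflux genes (0.11, 14 genes) had 0 past an unadjusted p under 0.05, and the medians were -0.04 to 0.14 and -0.04 to 0.18 with any single library left out. Mitochondrially encoded genes had a median of -0.06 and 0 of 13. Of the sex-linked list, the 4 Y-linked genes were tested, with a median of -0.32 (-0.47 to -0.13) and 1, Ddx3y, lower at that p (0 to 3), and they were expressed in all 6 libraries.

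**Figure D5:**
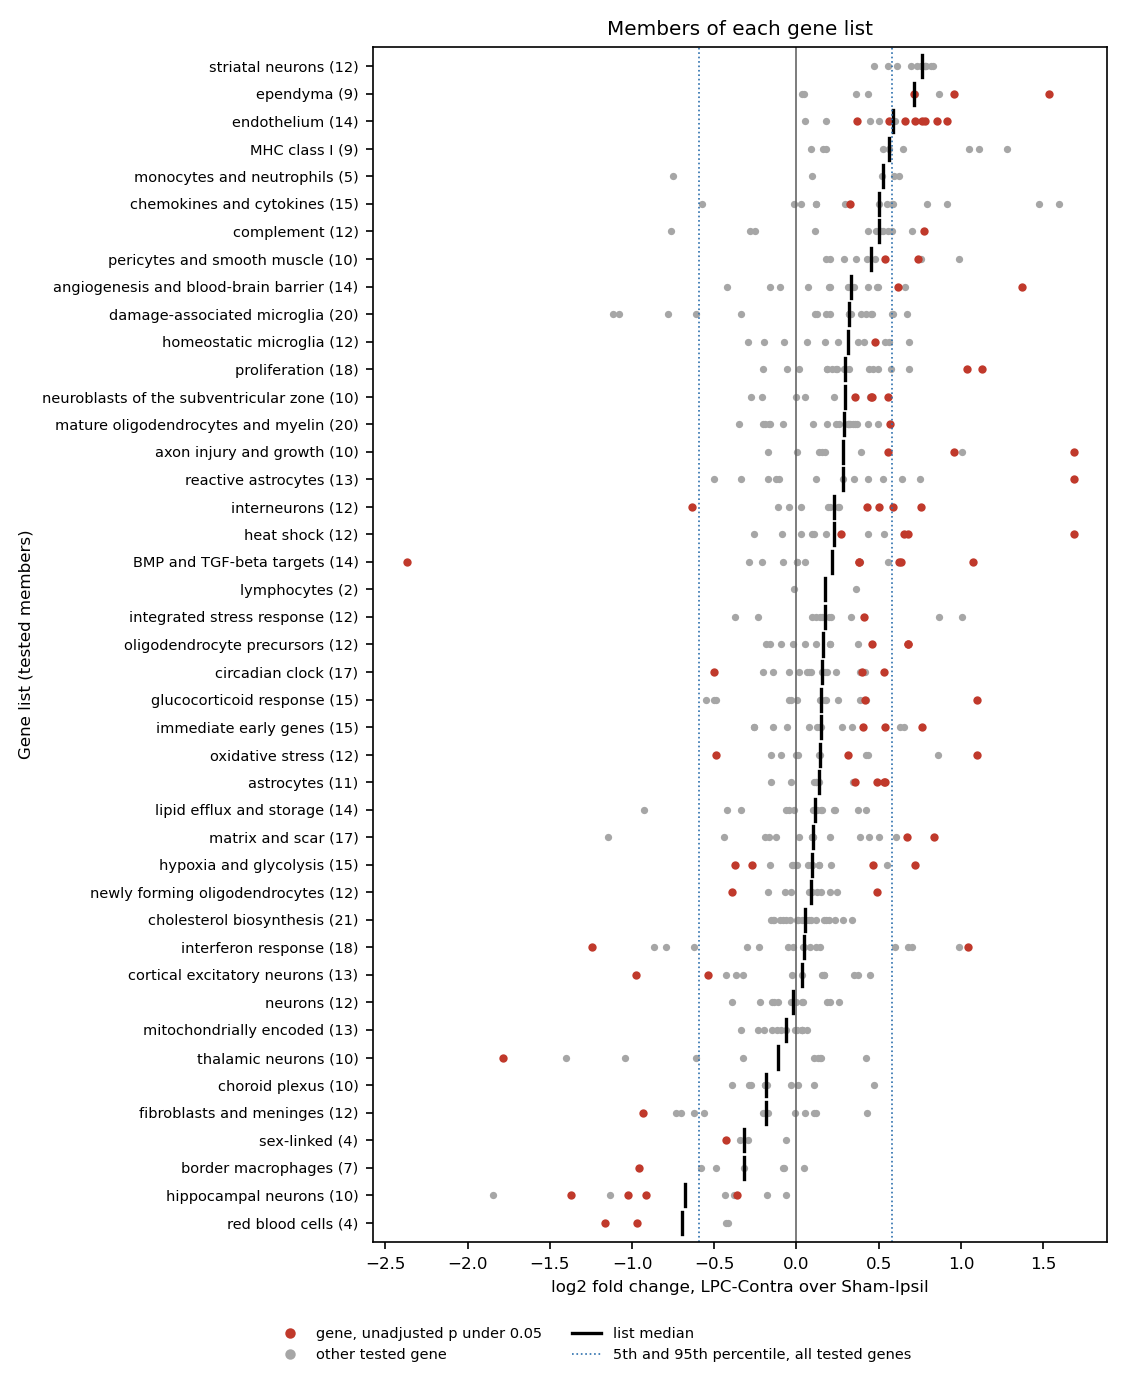
Log2 fold change of LPC-Contra over Sham-Ipsil (x axis) for each tested member of 43 gene lists (y axis, number tested in brackets), in red at an unadjusted p under 0.05 and grey otherwise, with a black bar at each list median and dotted lines at -0.59 and 0.58 around the middle 90% of all genes. Endothelial genes have 8 red points on the right, and hippocampal genes 4 on the left.

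Against LNIO-Contra, the other contralateral callosum, 0 of 16795 genes were called (0%), and the smallest adjusted p in edgeR was 0.0658. An unadjusted p under 0.05 was reached by 576 genes (3.43%), and DESeq2 called 6. Pltp had the smallest unadjusted p of the genes named as higher, at 33.6, 32.6 and 49.6 CPM in LPC-Contra, against 17.2, 21.2 and 19.1 CPM in LNIO-Contra (1.01 ± 0.17, edgeR adjusted p = 0.332). Eng, the endothelial co-receptor endoglin, had 20.3, 19.6 and 36.1 CPM in LPC-Contra, against 14.2, 9.22 and 9.02 CPM in LNIO-Contra. Both genes were without overlap. Dynlt1b, a dynein light chain gene with near-identical copies, had 11.6, 14.2 and 17.5 CPM in LPC-Contra, against 25.0, 28.4 and 34.1 CPM in LNIO-Contra, and its split from those copies is uncertain.

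Set against the lesion itself, 0 genes were called (0%) with a smallest adjusted p of 0.0629 in edgeR. An unadjusted p under 0.05 was reached by 2036 (12.1%), and DESeq2 called 669. These sides may share mice, which is not stated, and they were tested as separate groups. LPC-Ipsil replicate 3 stood apart. Its summed CPM of damage-associated microglia genes was 2060, against 12600 and 8160 in replicates 1 and 2, and 1810 to 3200 in LPC-Contra. Its rank correlation was 0.963 and 0.979 with LPC-Ipsil replicates 1 and 2, and 0.989, 0.973 and 0.99 with LPC-Contra replicates 1 to 3. It was 0.987 with each Sham-Ipsil library and 0.991 with LNIO-Contra replicate 2, so the likeness was not to LPC-Contra alone. Without LPC-Ipsil replicate 3 edgeR called 950 genes, 49 higher and 901 lower in LPC-Contra. Damage-associated microglia genes had a median of -3.09, with 19 of 20 lower (15 to 19 with single libraries left out) at an unadjusted p under 0.05, where 8.53% of all genes were lower. Cd33, a myeloid inhibitory receptor, had 15.5, 15.9 and 16.9 CPM in LPC-Contra, against 90.4, 64.8 and 24.1 CPM in LPC-Ipsil. Csf1, the growth factor of microglia, had 37.4, 35.1 and 33.2 CPM in LPC-Contra, against 105, 85.9 and 48.4 CPM in LPC-Ipsil. Replicate 3 of LPC-Ipsil was the nearest to LPC-Contra in both genes.

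Neuronal activity genes were on the higher side in that comparison. Immediate early genes had a median of 0.72, with 10 of 15 higher and 0 lower at an unadjusted p under 0.05, where 3.59% of all genes were higher. Without LPC-Ipsil replicate 1 the number higher was 5, and without LPC-Ipsil replicate 3 it was 6. Neuron markers had higher values in LPC-Contra as well. Of the pan-neuronal genes, 12 of 12 were above 0 with a median of 0.33, and 6 were higher at that p (3 without LPC-Ipsil replicate 1 and 4 without LPC-Ipsil replicate 2). Of the interneuron genes, 12 of 12 were above 0 with a median of 0.43, and 4 were higher (4 to 7 with single libraries left out). The part of these markers in the activity result was not tested. Egr1 had 331, 336 and 340 CPM in LPC-Contra, against 167, 203 and 167 CPM in LPC-Ipsil (0.90 ± 0.18, edgeR adjusted p = 0.0629). Vgf had 194, 187 and 175 CPM in LPC-Contra, against 127, 112 and 104 CPM in LPC-Ipsil, and no library overlapped in either gene. Vgf therefore stood higher in LPC-Contra than in both Sham-Ipsil and LPC-Ipsil, without passing the adjusted threshold in either.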

How the data were processed

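HISAT2 2.2.1, R 4.4.2 and GRCm39 are listed per the submitters' processing notes. How reads were counted, by which annotation and strand, is not given in the sources used here. Overlapping, antisense and near-identical genes are therefore uncertain. The authors deposited whole-number read counts and FPKM values per gene symbol. Of the symbols, 74 entries repeat another, and 0 columns were left unmatched.

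Counts were tested with edgeR 4.0.16 (quasi-likelihood, robust, TMM scaling, filterByExpr with a minimum count of 10 and a minimum total of 15) in one model of 15 libraries without a block, and called at an adjusted p under 0.05. CPM are TMM-scaled, but summed CPM use total counts. Gene length was taken from the ratio of the 2 deposited tables. Alternatives used DESeq2 and limma 3.58.1 on log2(FPKM + 0.1 or 1). The test was also run on simulated counts, with the same spread setting for every gene and no library apart from its group. That run does not show how the test behaves on these libraries. In all 5 groups, replicates differed by more than sampling noise (chi-square per degree of freedom 10.1 to 63.7).

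The comparison and the 43 gene lists were chosen with earlier results of these data known. Named genes were the 10 on each side with the smallest p (4 in the other comparisons) that had no overlap and a mean log2 CPM of 1 or more, up to 4 members per list, and fixed markers. Predicted genes were left out, and 1 gene that the rule names is not reported here.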

Additional observations from a re-analysis of the deposited data

How the results depend on the processing

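For LPC-Contra against Sham-Ipsil, DESeq2 called 28 genes, and 0 were called with only these 2 groups, with only Sham-Ipsil, LPC-Contra and LNIO-Contra, or without both LPC-Contra replicate 2 and Sham-Ipsil replicate 1, a setting chosen after seeing the data. Leaving out single libraries gave 0 to 2 calls, 2 without LPC-Contra replicate 3. For LPC-Contra against LNIO-Contra, 1 gene was called with no filter on low counts and 1 by limma on log2(FPKM + 0.1) and on log2(FPKM + 1), and DESeq2 called 6. Leaving out single libraries gave 0 to 2 calls there, with 2 without LPC-Contra replicate 2, among them Flt1, a receptor of endothelial cells chosen after its values were seen (log2 fold change 1.44, adjusted p = 0.0389 in edgeR). For LPC-Contra against LPC-Ipsil, DESeq2 called 669, and leaving out single libraries gave 0 to 950, the highest without LPC-Ipsil replicate 3. The cause of these changes was not tested.

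With the replicate block, 0 genes were called against Sham-Ipsil and 1 against LNIO-Contra, Alb, chosen after its values were seen and high in 1 LNIO-Contra library. Same-numbered libraries correlated between -0.147 and 0.061 with Sham-Ipsil, so the numbers pair no samples there. With LPC-Ipsil, which may come from the same mice, the values for replicates 1 to 3 were -0.0357, 0.165 and 0.334. Against LPC-Ipsil the replicate block gave 0 calls.

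Signs of small differences from Sham-Ipsil turned when 1 library, or the 2 named above, were left out. The log2 fold changes then ran from -0.269 to 0.912 for Cd4, -0.0943 to 0.154 for Pdgfra, -1.23 to 0.258 for Spp1, -2.29 to 0.947 for Kl and -0.117 to 0.064 for Snap25. They ran from -0.00477 to 0.272 for Cd33, -1.24 to 0.509 for Icos, -0.431 to 0.285 for Fos, -0.104 to 0.481 for Mog, -0.255 to 0.751 for Trem2 and -0.0308 to 0.225 for Fkbp5. At this depth a gene with no counts in a library could still have a level of up to 0.151 to 0.203 CPM.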
